A study of Mus musculus with 3 samples.

Results

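Expression of the CCN matricellular genes, of the transcriptional co-activators YAP and TAZ with their DNA-binding partner TEAD1, and of the YAP/TAZ targets Ankrd1 and Amotl2 was followed in OCCM-30 cells. The 10 genes were taken by symbol from a count table of 46095 genes, where the CCN genes carry their older names: Cyr61 (Ccn1), Ctgf (Ccn2), Nov (Ccn3), Wisp1 (Ccn4) and Wisp2 (Ccn5). OCCM-30 cells are an immortalised line of mouse cementoblasts, which deposit cementum on the tooth root, and their genotype is given as wild type. The libraries came from cells without cementogenic differentiation (day 0) and from cells held under cementogenic differentiation for 7 or 14 days, with 1 total RNA library each. Differences between time points could not be checked against replicates, so p-values are absent throughout. A time-matched uninduced culture was not analysed here, so time in culture and induction cannot be told apart.

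CCN proteins are secreted, modular matrix proteins that bind integrins, proteoglycans and growth factors and so tune how a cell reads its matrix. YAP and TAZ (gene Wwtr1) are co-activators that the Hippo kinases LATS1 and LATS2 keep out of the nucleus. When released, for example on a stiff matrix, they bind TEAD factors on DNA and switch on genes such as Cyr61, Ctgf, Ankrd1 and Amotl2. In bone-forming cells TAZ is also known as a partner of RUNX2. Where YAP and TAZ sit in the cell and whether they are phosphorylated cannot be read from RNA counts.

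The day 0 library summed to 13224690 counts, that of day 7 to 14034518 and that of day 14 to 14439666. Levels of different genes are given per length, as the authors' FPKM. Changes of 1 gene are given as ratios of counts scaled by library total and TMM factor, with an exact 95% counting interval. The words rose and fell are kept for genes with a ratio of at least 2 in either direction, at least 1 CPM in the higher library, CPM being the count relative to the scaled library total, and an interval that excluded 1. These intervals hold the counting error alone, and PCR copies of a molecule were not told apart. Scaling by total counts alone would lower every ratio against day 0, by 0.15 on the log2 scale for the median gene on either day. The bone-forming identity of the cells was checked on 10 cementoblast and osteoblast markers, all with counts in every library. By day 7, 6 of them rose (60%, beside 12.2% of all genes measured), and by day 14, 7 did (70%, beside 9.5%). On day 0 Ibsp and Bglap had 6 counts each and Bglap2 had 12, so these rises start from few counts. Col1a1, Col1a2 and Spp1 stayed within 2-fold on both days. Of the listed markers of other cells, those at 0 counts in all 3 libraries were Adgre1, Cdh5, Kdr, Krt5, Epcam, Myod1, Actn2, Acan and Adipoq. Others had counts in every library. On days 0, 7 and 14 Cd68 had 55, 39 and 33 and Ctsk 50, 76 and 93. Of the endothelial markers, Vwf had 41, 31 and 36 and Pecam1 19, 32 and 14. The 6 macrophage and osteoclast markers summed to 7.59, 12.98 and 11.2 CPM on days 0, 7 and 14, the 5 endothelial markers to 4.22, 4.79 and 3.60, and the 4 adipocyte markers to 0.281, 0.664 and 0.288. Acp5, the osteoclast phosphatase TRAP, was the marker of the first list that rose, from 0 counts on day 0 to 59 on day 7 and 29 on day 14, and its part in the results below was not tested.

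The gene table places the start sites of Cyr61 on chromosome 3, Ankrd1 on chromosome 19 and Amotl2 on chromosome 9 (mm10). The promoters of these YAP/TAZ targets are shown because Cyr61 rose, Ankrd1 fell and Amotl2 stayed within 2-fold, with values given below, and all hold the letters that TEAD factors are known to bind. The sequences run 5′ to 3′ on the strand of the gene, from 250 bases before the RefSeq start (GRCm38.p6) to 50 bases from it on. Capitals mark the motif GGAATG or, on the other strand, CATTCC. The Cyr61 window is chr3:145649936-145650235 on the minus strand, the Ankrd1 window chr19:36119795-36120094 on the minus strand and the Amotl2 window chr9:102717554-102717853 on the plus strand.
Cyr61: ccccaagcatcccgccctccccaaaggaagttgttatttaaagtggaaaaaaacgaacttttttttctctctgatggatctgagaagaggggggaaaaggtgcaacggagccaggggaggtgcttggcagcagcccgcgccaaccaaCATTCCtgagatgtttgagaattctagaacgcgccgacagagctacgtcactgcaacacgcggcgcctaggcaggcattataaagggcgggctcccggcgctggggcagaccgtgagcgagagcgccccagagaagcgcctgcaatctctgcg
Ankrd1: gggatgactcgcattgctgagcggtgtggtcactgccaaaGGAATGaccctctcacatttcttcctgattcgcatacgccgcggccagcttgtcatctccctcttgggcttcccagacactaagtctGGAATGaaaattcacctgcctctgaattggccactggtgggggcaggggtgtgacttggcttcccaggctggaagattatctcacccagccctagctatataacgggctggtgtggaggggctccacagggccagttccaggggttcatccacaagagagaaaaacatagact
Amotl2: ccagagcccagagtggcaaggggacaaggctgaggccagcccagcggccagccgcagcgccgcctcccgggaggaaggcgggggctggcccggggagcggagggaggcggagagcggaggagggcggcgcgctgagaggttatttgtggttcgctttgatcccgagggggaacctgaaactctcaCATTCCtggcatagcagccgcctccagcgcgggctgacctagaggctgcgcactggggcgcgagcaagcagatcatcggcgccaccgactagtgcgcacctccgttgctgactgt

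Cyr61 held the motif once, at positions -103 to -98 from the start, on the strand opposite to the gene. Ankrd1 held it at -210 to -205 and again at -123 to -118, and Amotl2 at -65 to -60 on the opposite strand. The RefSeq starts of Cyr61 and Ankrd1 are those of the gene table, whereas that of Amotl2 lies 510 bases downstream of the start listed there. RefSeq windows were found for 5 of the 10 genes, and none for Ctgf, Nov, Wisp1, Wisp2 and Tead1. The windows of Yap1 and Wwtr1 also held the motif, at -141 to -136 and at -136 to -131. The motif thus stood in the windows of all 5, against 16.6% of 27025 genes with a window and 14.7% of 32851 windows. Cyr61, Ankrd1 and Amotl2 were included as known YAP/TAZ targets, so this share is a description and no test of enrichment. A list of 22 genes widely used as YAP/TAZ targets came mostly from work on human cancer. Of its 15 genes with a window, 7 held the motif. These were Cyr61, Ankrd1 and Amotl2, already counted above, and Lats2, Axl, Crim1 and Ptpn14. Other lists, which share some genes, held it too: 6 of 8 TEAD factors and cofactors, 8 of 21 Hippo regulators and 6 of 16 actin and SRF genes. It stood in 3 of 7 striated muscle markers, 2 of 8 CCN receptors and 0 of 7 cementoblast and osteoblast markers. These matches describe letters in a window and were not tested for binding.

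The leading CCN transcript per length was Wisp1 on day 0 and Cyr61 on day 7. Of the 10 genes, 2 rose by day 7, Cyr61 and Wisp2, against 12.2% of 14694 genes measured. A further 3 fell, Nov, Wisp1 and Ankrd1, against 11.4% of all genes. The other 5, Ctgf, Amotl2, Yap1, Wwtr1 and Tead1, stayed within 2-fold. The median log2 ratio of the 10 was 0.20, beside 0.00054 over all genes measured.

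Cyr61 encodes an integrin-binding CCN protein that supports angiogenesis and bone formation, and it is a classical immediate-early and YAP target gene (chromosome 3, 145646971 to 145649985, minus strand). Its counts were 318, 3420 and 1949 in the day 0, day 7 and day 14 libraries. That is 22.4, 252 and 140.3 CPM, lowest on day 0 and highest on day 7. The rise was 11.3-fold by day 7 (95% counting interval 10.1 to 12.7) and 6.28-fold by day 14 (5.57 to 7.09). Per length it was at 11.9 FPKM on day 0, higher than 58.0% of the protein-coding genes with a count, and at 120.2 FPKM on day 7, higher than 97.6% of them.

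Ctgf encodes connective tissue growth factor, a driver of matrix production and the CCN gene closest to Cyr61 in its use as a YAP readout (chromosome 10, 24595442 to 24598683, plus strand). It had 80, 131 and 74 counts in the same order. These are 5.62, 9.66 and 5.33 CPM, and day 7 is the high library. The ratio was 1.72 on day 7 (1.29 to 2.30), short of 2-fold, and 0.947 on day 14 (0.681 to 1.32). Cyr61 and Ctgf can be set against each other within a library, which needs no scaling: per length there was 4.71 times as much Cyr61 as Ctgf on day 0 (3.68 to 6.10), 30.9 times on day 7 (26.0 to 37.1) and 31.2 times on day 14 (24.7 to 39.9). The intervals of day 7 and day 14 lie apart from that of day 0.

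**Figure D1:**
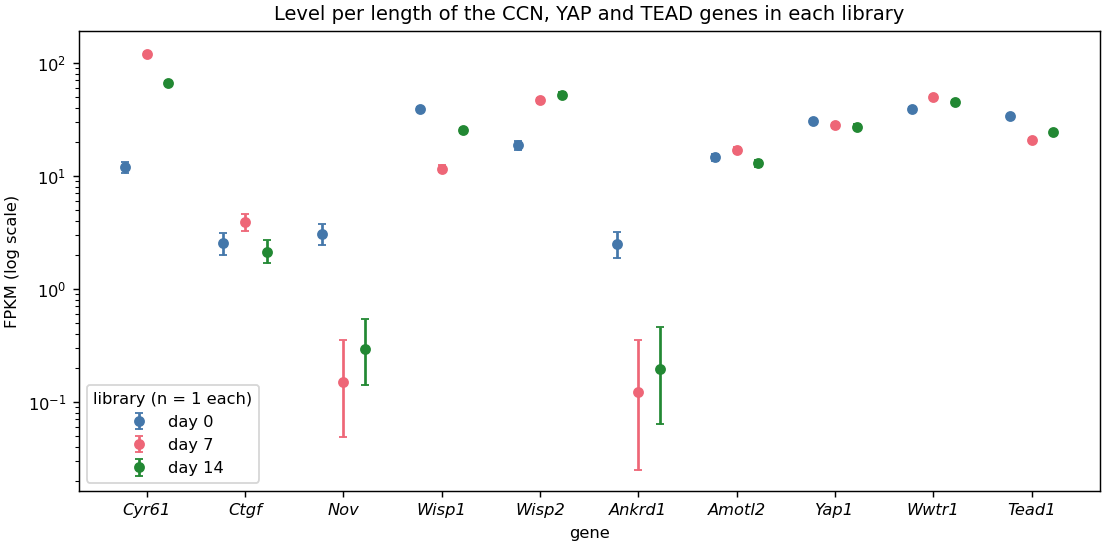
FPKM of the 10 genes (vertical axis, log scale) in the day 0, day 7 and day 14 libraries, with 95% Poisson counting intervals as bars and 1 library per point. Cyr61 went from 11.9 FPKM on day 0 to 120.2 on day 7, Nov and Ankrd1 dropped to well below 1 FPKM, and Yap1 lay between 27.2 and 30.5.

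Nov encodes CCN3, which is known to restrain BMP signalling and osteoblast differentiation (chromosome 15, 54745928 to 54753762, plus strand). It went from 95 counts on day 0 to 5 on day 7 and 10 on day 14. The fall was 18.1-fold by day 7 (7.49 to 57.0) and 9.28-fold by day 14 (4.83 to 20.0). The difference between days 7 and 14 was not detectable at this depth, with a ratio of 1.95 and an interval of 0.608 to 7.28. The 4 chondrocyte markers went in different directions, with Acan at 0 throughout and a sum of 32.3, 43.7 and 57.9 CPM on days 0, 7 and 14. Col2a1 fell from 90 counts to 6 and 1, Comp rose from 3 counts to 23 and 25, and Sox9, with 367, 563 and 778 counts, rose 2.17-fold by day 14 (1.92 to 2.46). The part of such cells in the change of Nov was not tested.

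Wisp1 encodes CCN4, a Wnt1-induced protein found in bone-forming cells (chromosome 15, 66891325 to 66923205, plus strand). Its counts were 2605, 825 and 1849 on days 0, 7 and 14, or 183, 60.9 and 133 CPM. It was lowest on day 7 and highest on day 0. Wisp1 fell 3.01-fold by day 7 (2.78 to 3.26), and on day 14 it stood at 0.727 of its day 0 value (0.684 to 0.772), within 2-fold.

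Wisp2 encodes CCN5, the family member that lacks the C-terminal cystine-knot domain (chromosome 2, 163820752 to 163833146, plus strand). The shorter protein shows in the GENCODE gene models, in which the longest coding sequence of Wisp2 has 753 bases and those of the other 4 CCN genes 1044 to 1137, each spread over transcripts of 5 exons. It had 438, 1158 and 1336 counts in the 3 libraries in order of time, or 30.8, 85.4 and 96.2 CPM. Both later libraries were above day 0, with a rise of 2.77-fold by day 7 (2.48 to 3.10) and 3.12-fold by day 14 (2.80 to 3.49). Wisp1 and Wisp2 changed places: per length, the ratio of Wisp1 to Wisp2 was 2.08 on day 0 (1.88 to 2.31), 0.249 on day 7 (0.228 to 0.273) and 0.484 on day 14 (0.451 to 0.520). The remaining family member, Wisp3, had 1 count in the day 7 library and 0 in the others. With 0 counts, up to 3 could have gone unseen, which is 0.211 CPM on day 0 and 0.216 CPM on day 14.

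Summed over the CCN genes, FPKM was 74.9 on day 0, 182 on day 7 and 146 on day 14. Wisp1 made up 51.8% of that sum on day 0, 6.35% on day 7 and 17.2% on day 14. Cyr61 made up 15.8%, 65.9% and 45.5%. Wisp2 held 24.9%, 25.5% and 35.6%, and the shares of Ctgf and Nov were at most 4.05% in any library. On day 0 the order from high to low was Wisp1, Wisp2, Cyr61, Nov and Ctgf, with Nov and Ctgf not separable by counting error (ratio per length 1.21, 0.886 to 1.64). On days 7 and 14 Cyr61 was first and Wisp2 second. In bulk RNA such shares cannot tell fewer cells expressing a gene from less RNA of it per cell.

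**Figure D2:**
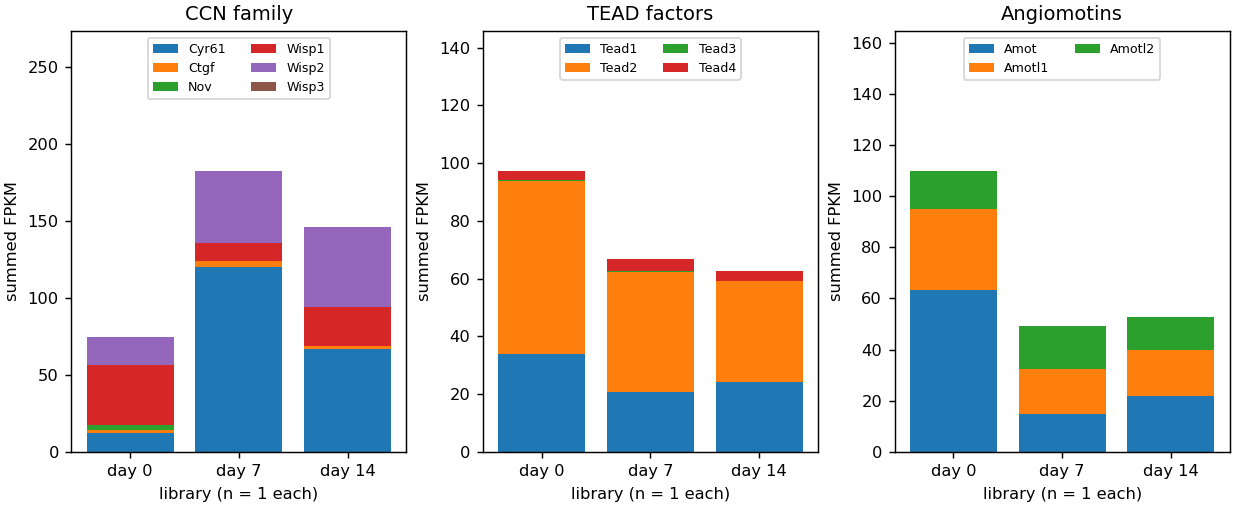
Stacked FPKM (vertical axis) of the CCN genes, the TEAD factors and the angiomotins in each of the 3 libraries (1 each). The CCN sum grew from 74.9 on day 0 to 182 on day 7 with Cyr61 as the main part, while the angiomotin sum went from 109.8 to 49.3.

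Ankrd1 encodes a stretch-responsive ankyrin repeat protein of muscle and fibroblast nuclei (chromosome 19, 36111965 to 36119844, minus strand), and it went the other way from Cyr61. It had 58 counts on day 0 and 3 and 5 counts on days 7 and 14. The fall was 18.4-fold by day 7, with a wide interval of 6.0 to 91.9, and 11.3-fold by day 14 (4.59 to 36.2). Per length the ratio of Cyr61 to Ankrd1 within a library was 4.77 on day 0 (3.60 to 6.43), 992 on day 7 (339 to 4813) and 339 on day 14 (145 to 1046). Of 8 striated muscle markers only Tnnt2 reached 1 CPM, going from 17 counts on day 0 to 0 in both later libraries; the list summed to 1.34, 0.443 and 1.22 CPM on days 0, 7 and 14. The part of muscle-like cells in the change of Ankrd1 was not tested.

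Amotl2 encodes an angiomotin, a scaffold that holds YAP at junctions and actin and is itself a YAP target (chromosome 9, 102717294 to 102733418, plus strand). It had 838, 1037 and 805 counts on days 0, 7 and 14, or 58.9, 76.5 and 57.9 CPM. The ratio to day 0 was 1.30 on day 7 (1.18 to 1.42) and 0.984 on day 14 (0.892 to 1.08). Its paralogue Amot fell 3.87-fold by day 7 (3.67 to 4.09) and 2.59-fold by day 14 (2.48 to 2.71). The ratio of Amotl2 to Amot per length was thus 0.231 on day 0 (0.214 to 0.248), 1.16 on day 7 (1.07 to 1.25) and 0.588 on day 14 (0.542 to 0.637).

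The co-activators and TEAD1 themselves stayed within 2-fold throughout. Yap1 (chromosome 9, 7931999 to 8004596, minus strand) had 1688, 1648 and 1643 counts, which is 119, 122 and 118 CPM. Its ratio to day 0 was 1.02 on day 7 (0.957 to 1.10) and 0.997 on day 14 (0.931 to 1.07), so a 2-fold change lies outside both counting intervals. The sign of the day 7 value depended on the scaling and was negative with total counts.

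Wwtr1, the TAZ gene (chromosome 3, 57455644 to 57575910, minus strand), had 2448, 3341 and 3085 counts on days 0, 7 and 14, or 172, 246 and 222 CPM. Day 0 was the low library, and the ratios were 1.43 on day 7 (1.36 to 1.51) and 1.29 on day 14 (1.22 to 1.36). Per length, TAZ exceeded YAP transcripts 1.28-fold on day 0 (1.20 to 1.36), 1.79-fold on day 7 (1.68 to 1.89) and 1.65-fold on day 14 (1.56 to 1.76).

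Tead1 (chromosome 7, 112679320 to 112906805, plus strand) had 4452, 2901 and 3490 counts, or 313, 214 and 251 CPM. It was highest on day 0, with ratios of 0.684 on day 7 (0.652 to 0.717) and 0.803 on day 14 (0.768 to 0.839). Among the TEAD genes, Tead2 led per length, with 59.9 FPKM on day 0, 41.7 on day 7 and 34.8 on day 14, beside 33.8, 20.7 and 24.3 FPKM for Tead1. Tead4 was at 3.10 to 4.26 FPKM, and Tead3 had 13, 7 and 7 counts. The list of TEAD factors and their cofactors held 10 genes, Yap1, Wwtr1 and Tead1 among them, and 7 were measured. None rose or fell in any of the 3 comparisons, and the median log2 ratio was 0.035 on day 7. Of all genes 12.2% rose and 11.4% fell by day 7, and 9.5% and 8.14% by day 14. Between days 7 and 14 these shares were 2.78% and 2.3%. With 7 genes, few calls would be made at such shares. Vgll3 and Vgll4, cofactors that bind TEADs at the YAP surface, had ratios of 0.676 (0.633 to 0.723) and 1.06 (0.985 to 1.15) on day 7. Vgll1 and Vgll2 were at 0 counts in every library. Of these genes, Tead2, Tead3, Tead4, Vgll1, Vgll2, Vgll3 and Vgll4 were named after their values were seen.

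**Figure D3:**
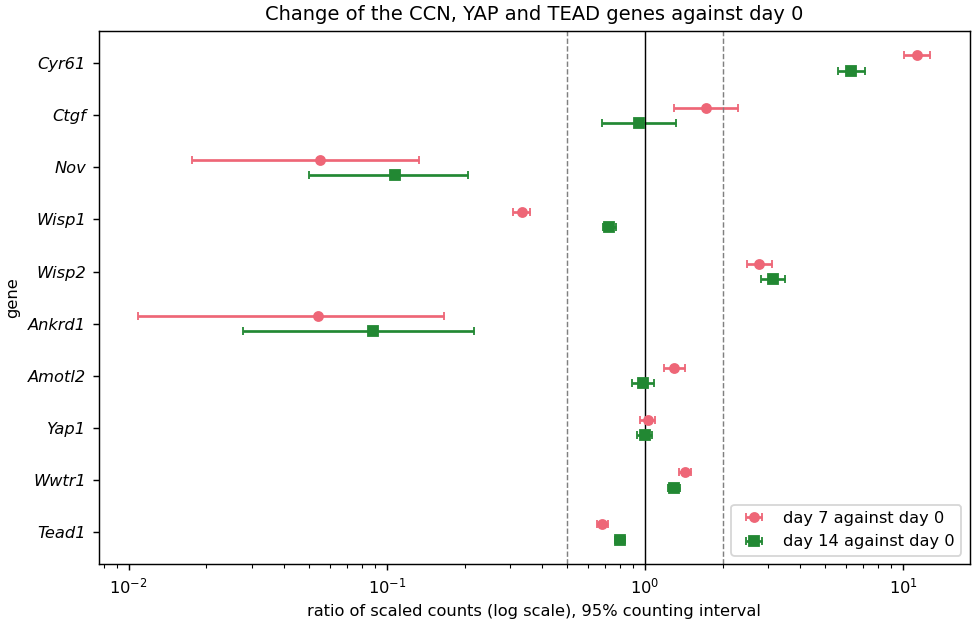
Ratio of scaled counts against day 0 (horizontal axis, log scale) for the 10 genes, on day 7 (circles) and day 14 (squares), with 95% counting intervals; dashed lines mark 2-fold either way. Cyr61 and Wisp2 lie to the right of the 2-fold line on both days and Nov and Ankrd1 to the left, while Yap1 sits at 1.02 and 0.997.

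After 14 days, 2 of the 10 genes were higher than on day 0, Cyr61 and Wisp2, where 9.5% of 14593 genes were. Nov and Ankrd1 were lower, where 8.14% of all genes were, and the median log2 ratio of the 10 was -0.048. Against day 7, Wisp1 alone of 8 measured genes rose, 2.19-fold (2.01 to 2.38), where 2.78% of 14404 genes did. None fell, where 2.3% of all genes did. Cyr61 and Ctgf stood at 0.556 (0.526 to 0.588) and 0.551 (0.409 to 0.739) of their day 7 values, so both were lower on day 14 by nearly the same proportion, short of 2-fold. Wisp2 had a ratio of 1.13 (1.04 to 1.22) and Amotl2 one of 0.758 (0.690 to 0.831). Nov and Ankrd1 were below 1 CPM on both days and were not measured in that comparison. The 3 comparisons share libraries and are not independent of each other.

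By FPKM, Cyr61 went from rank 7 of the 10 genes on day 0 to rank 1 on days 7 and 14, Wisp1 from rank 2 to ranks 7 and 5, and Wisp2 from rank 5 to ranks 3 and 2. On day 0 Wwtr1 and Wisp1 stood at the top at 39.0 and 38.8 FPKM and could not be separated by counting error (ratio 1.004, 0.949 to 1.06), followed by Tead1, Yap1, Wisp2, Amotl2 and Cyr61. Nov, Ctgf and Ankrd1 came last, at 3.04, 2.52 and 2.48 FPKM, and neighbours among them did not differ beyond counting error. On day 7 Cyr61 stood 2.40-fold above the next gene, Wwtr1 (2.29 to 2.52). On day 14 it stood 1.28-fold above the next, Wisp2 (1.19 to 1.37), and Wisp1 and Tead1 were not separable (ratio 1.04, 0.983 to 1.10). Nov and Ankrd1 closed the order on both days and could not be told apart.

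The wider set of YAP/TAZ targets held genes that rose and genes that fell. Of the 22 genes 21 were measured, and by day 7 3 rose, Cyr61, Nt5e and Gadd45a, while 6 fell: Ankrd1, Rbms3, Dock5, Axl, Fjx1 and Crim1. That is 14.3% of the measured targets higher and 28.6% lower, beside 12.2% and 11.4% of all genes, so the share that rose was near that of all genes. The share that fell rests on 6 genes, of which Fjx1 had only 15, 3 and 12 counts on days 0, 7 and 14. The median log2 ratio of the list was 0.014, beside 0.00054 for all genes. Cyr61, Ctgf, Ankrd1 and Amotl2 belong to this list too. Nt5e, the ectoenzyme CD73 that makes adenosine, rose 5.47-fold by day 7 (4.99 to 6.02) and 4.08-fold by day 14 (3.71 to 4.49). Gadd45a, a growth arrest and DNA damage gene, rose 2.59-fold (2.26 to 2.97) and 2.19-fold (1.90 to 2.52), and its day 14 ratio was below 2 with total counts alone, under which Crim1 joined the genes that fell. Dock5, a Rac exchange factor, fell 2.69-fold (2.44 to 2.95) and 2.25-fold (2.06 to 2.46), and Rbms3, an RNA-binding protein gene, 3.38-fold (2.84 to 4.04) and 2.06-fold (1.79 to 2.39).

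By day 14 the same 3 genes were up and 5 were down: Ankrd1, Axl, Dock5, Nuak2 and Rbms3. These are 14.3% and 23.8% of the measured targets, beside 9.5% and 8.14% of all genes, and the 2 shares rest on 3 and 5 genes. The median was -0.087, and none of 19 measured targets passed the rule between day 7 and day 14. Of all genes 2.78% were higher and 2.3% lower in that comparison, so 0 of 19 is near the share of all genes. Axl, a receptor tyrosine kinase gene chosen after its values were seen, fell 2.36-fold (2.23 to 2.49) and 2.52-fold (2.38 to 2.66). The most abundant targets by CPM, Myof and Asap1, had day 7 ratios of 1.11 (1.07 to 1.15) and 0.895 (0.855 to 0.936). Igfbp3 was at 0 counts in all libraries.

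**Figure D4:**
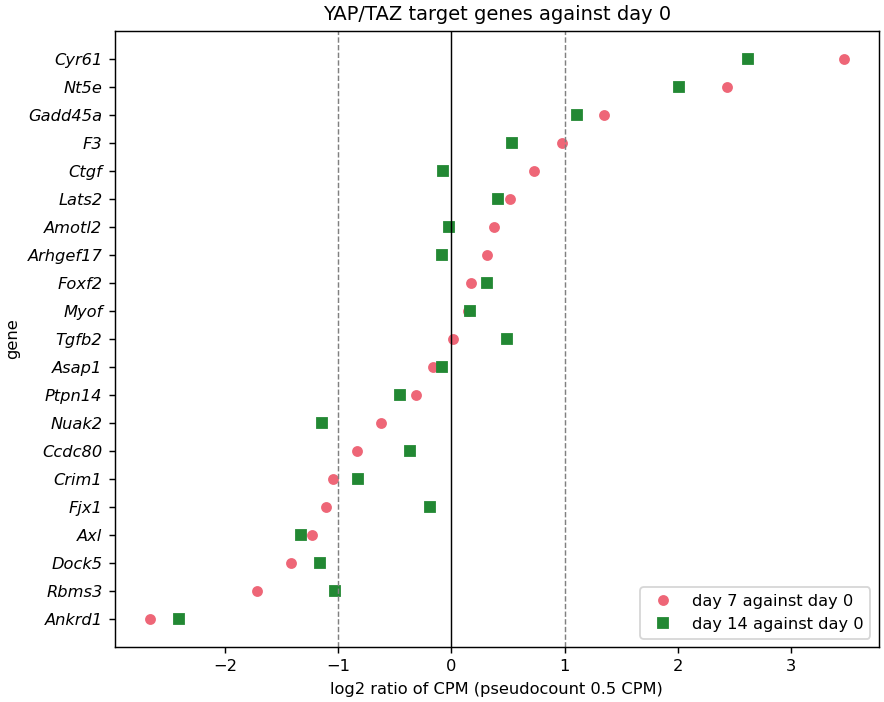
Log2 ratio to day 0 (horizontal axis; CPM plus a pseudocount of 0.5) for the 21 measured YAP/TAZ target genes, on day 7 (circles) and day 14 (squares); dashed lines mark 2-fold. Cyr61 (3.47 on day 7) and Ankrd1 (-2.67) stand at the opposite ends of the list.

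Upstream of YAP and TAZ, 25 Hippo kinases, adaptors and regulators were measured. On day 7 2 rose, Wtip and Dchs1, and 2 fell, Amot and Ajuba; on day 14 Dchs1 rose and Frmd6, Amot and Ajuba fell. The shares higher and lower were 8% and 8% on day 7, below the 12.2% and 11.4% of all genes. On day 14 they were 4% and 12%, beside 9.5% and 8.14%, and the 12% lower rests on 3 genes. The kinases themselves (Stk3, Stk4, Lats1 and Lats2) did not pass the rule, nor did their partners Sav1, Mob1a and Mob1b. Ajuba, a LIM protein that inhibits LATS, fell 2.60-fold (2.05 to 3.32) and 4.08-fold (3.08 to 5.47), while Wtip, a relative of it, rose 2.49-fold by day 7 (2.11 to 2.94) and had a ratio of 1.46 (1.22 to 1.75) on day 14. Dchs1, a large cadherin that is a ligand of FAT4, rose 2.36-fold (1.69 to 3.34) from 52 counts and 2.42-fold (1.74 to 3.42). Frmd6, a FERM protein that promotes Hippo signalling, had a ratio of 0.519 (0.466 to 0.577) on day 7 and fell 2.38-fold by day 14 (2.13 to 2.67). The kinase genes Map4k4 and Taok1 had the highest CPM of the list, with day 7 ratios of 1.47 (1.42 to 1.52) and 0.956 (0.925 to 0.988). The median log2 ratio of the list was -0.14 on day 7 and -0.023 on day 14.

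CCN genes and Ankrd1 are also known to answer to the actin-regulated factors SRF and MRTF, and 16 of 18 actin and SRF genes were measured. The others were Tagln, with 3, 1 and 1 counts on days 0, 7 and 14, and Cnn1, with 2, 0 and 0. By day 7 Acta2 and Myl9 rose and Flna fell, and by day 14 Myl9 alone rose and none fell; the medians were -0.12 and -0.19. With 12.5% higher and 6.25% lower on day 7 and 6.25% and 0% on day 14, the list was near or below all genes, at 12.2% and 11.4%, and 9.5% and 8.14%. Myl9, a myosin light chain gene, rose 5.75-fold (3.74 to 9.20) from 25 counts and 3.65-fold (2.32 to 5.93). Acta2, smooth muscle actin, rose 2.26-fold by day 7 (2.03 to 2.51), and Flna, the actin crosslinker filamin A, fell 2.44-fold (2.38 to 2.50). Actb had ratios of 0.689 (0.679 to 0.698) and 0.848 (0.837 to 0.859).

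Among 11 receptors that bind CCN proteins, all measured against day 0, Fgfr2 rose on both days and Itga6 and Itgb3 fell. On either day this was 9.09% higher and 18.2% lower, beside 12.2% and 11.4% of all genes on day 7 and 9.5% and 8.14% on day 14, and with 11 genes each share rests on 1 or 2 of them. Itga6, the integrin alpha 6 subunit through which CYR61 acts on fibroblasts, fell from 213 to 12 and 12 counts, 16.9-fold (9.48 to 33.3) by day 7 and 17.3-fold (9.72 to 34.1) by day 14. The 6 epithelial markers summed to 3.44, 0.443 and 0.144 CPM on days 0, 7 and 14, with Krt8 at 47, 2 and 0 counts and Krt5 and Epcam at 0, and their part in this change was not tested. Itgb3, which forms with Itgav a receptor for several CCN proteins, fell 3.33-fold (2.99 to 3.72) and 3.19-fold (2.87 to 3.55). Fgfr2, which CCN2 is known to bind, rose 4.05-fold (3.77 to 4.34) and 5.12-fold (4.79 to 5.49). Itgb1 and Lrp1 had the highest CPM of these receptors, and Itgb1 had ratios of 1.43 (1.40 to 1.47) and 1.40 (1.37 to 1.44), within 2-fold. The list's median log2 ratio was 0.22 on day 7 and 0.11 on day 14.

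Across 9763 genes with a mean of 10 CPM or more, the genes with the pair of log2 ratios nearest to that of Cyr61 (3.47 on day 7 and 2.62 on day 14) were Rgcc, Kcnf1 and Mlf1, at distances of 0.17, 0.19 and 0.20. Rgcc had 35, 434 and 219 counts on days 0, 7 and 14. Those nearest to Wisp1 were Skida1, N4bp2 and Cplx2, at 0.13, 0.13 and 0.14, and those nearest to Wisp2 were Duox1, Nfil3 and Raph1, at 0.032, 0.039 and 0.051. Amotl2, a gene near no change, was closest to Trappc12, Gle1 and Coq5. With 3 libraries these distances describe likeness over 3 points only.

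Reads of neighbouring genes could touch a few of these counts, since whether the counting used strand is unknown here. A long non-coding RNA on the other strand of Wisp1, LOC108168239, had 36, 12 and 11 counts on days 0, 7 and 14, beside the 2605, 825 and 1849 of Wisp1. On the other strand at Tead1, 2310014F06Rik had 29, 19 and 20.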

How the data were processed

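Total RNA of OCCM-30 cells gave 1 gene library per time point, assigned by column name and sample title. The authors deposited raw counts per gene, as whole numbers, and FPKM values, equal to count over listed length and summed counts within a relative tolerance of 0.001 in 98.8% to 98.9% of detected genes. Lengths in bases are as the authors listed them. The submitters' processing notes name mm10 as genome build and list DESeq, HTSeq, Cufflinks, TopHat and HISAT2 as tools, without roles or versions; the strand setting is not given in the sources.

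Counts were scaled with TMM factors (1.08, 0.966 and 0.962 for days 0, 7 and 14; edgeR 4.0.16, R 4.3.3). Ratios have exact Clopper-Pearson 95% intervals conditional on the summed counts; log2 ratios carry a pseudocount of 0.5 CPM, which understates changes of low genes. The procedure was tested on simulated Poisson counts with planted changes. These hold counting error only, so they cannot show how the rule fares with variation between libraries. Members and lists were chosen with earlier results of these data known. All members are named. From each other list except the cell type markers, up to 6 genes past the rule by log2 ratio and the 2 with the highest mean CPM are named. Of the cell type markers only some genes are named. The 3 nearest patterns are given for Cyr61, Wisp1, Wisp2 and Amotl2. Other genes named, chiefly to complete counts, were chosen after their values were seen. Promoters are from RefSeq, gene models from GENCODE. Proteins and miRNA tables were not used here. Tried as alternatives were size factors from DESeq2 1.42.0, total counts with or without mitochondrial genes, no minimum or 5 CPM, pseudocounts of 0.1 and 2 CPM, a 4-fold threshold, the FPKM values and, added after seeing the data, the threshold applied to values with the pseudocount.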

Additional observations from a re-analysis of the deposited data

Results flagged for a closer look

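With TMM scaling, Ctgf and Amotl2 lay above day 0 on day 7 and could not be told from it on day 14. The day 14 intervals against day 0 included 1 for both, at 0.681 to 1.32 for Ctgf and 0.892 to 1.08 for Amotl2. The log2 ratios of Ctgf were 0.73 and -0.072, and those of Amotl2 were 0.37 and -0.023. For Amotl2 the day 14 result depended on the scaling. With total counts its log2 ratio was -0.18, outside its counting interval under TMM scaling. That of Ctgf was then -0.22, within its interval. The difference between the time points was not tested, since each had 1 library; the counting intervals of day 14 against day 7 lay below 1 for both genes (0.409 to 0.739 for Ctgf and 0.690 to 0.831 for Amotl2).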

How the results depend on the processing

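No paired analysis was possible because each time point had 1 library, and for the same reason no library could be left out. With DESeq2 size factors, total counts, FPKM or no minimum, the 5, 4 and 1 of the 10 genes past the rule (day 7 and day 14 against day 0, day 14 against day 7) stayed the same genes. A minimum of 5 CPM took out Ankrd1, at 4.08 CPM on day 0. A 4-fold threshold left 3, 3 and 0 of the 10 genes, and 4 and 3 of the YAP/TAZ targets, in place of 9 and 8, against day 0. With no minimum 1 target, Fjx1, passed between day 7 and day 14, where 0 did otherwise. By day 7, 8 targets passed with the FPKM values, without Fjx1. A minimum of 5 CPM left 7, without Ankrd1 and Fjx1. With totals without mitochondrial genes 10 passed, Ccdc80 being added. By day 14 these 3 settings gave 8, 7 and 7 targets. Of 30 ratios of the 10 genes, 29 kept their sign under 6 alternatives. Yap1 on day 7 ranged from -0.13 to 0.035 on the log2 scale. The sizes held less well: of 180 recomputed values, 131 lay within the main counting interval and 49 outside it. The counting intervals thus do not cover the choice of scaling or pseudocount.

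Over all genes, total counts gave 1476 higher and 2121 lower on day 7, in place of 1799 and 1679, and 1139 higher and 1541 lower on day 14, in place of 1387 and 1188. The authors' FPKM values gave 1229 and 1728 on day 7 and 915 and 1210 on day 14, and totals without mitochondrial genes 1480 and 2148, and 1141 and 1527. A 4-fold threshold gave 718 and 637, 591 and 391, and 76 and 61 in the 3 comparisons; a minimum of 5 CPM gave 1078 and 1034, 794 and 649, and 111 and 71. Between days 7 and 14, 400 were higher and 331 lower, against 238 and 238 by FPKM and 242 and 183 with the pseudocount in the threshold. Depth limits Nov and Ankrd1 after day 0, at 3 to 10 counts, and Fjx1 throughout, at 15, 3 and 12.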
